A study of Mus musculus with 2 samples.

Results

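Adipocytes were identified in dorsal skin of the AD model by the transcripts of 3 genes, and 94 cells of the AD library met the criteria. A cell was kept when 200 to 6000 genes were detected in it and when mitochondrial transcripts made up at most 10% of its UMIs (unique molecular identifiers, each counting 1 captured mRNA molecule). Kept cells were then taken as adipocytes when Adipoq, Plin1 and Cidec together had at least 5 UMIs, when at least 2 of these 3 genes were found, and when no UMI of the pan-leukocyte gene Ptprc was present. The 94 cells were 1.15% of the 8179 kept cells of the AD library (95% interval 0.930 to 1.40%). The same criteria found 2 of 11399 kept cells in the Ctrl library, or 0.0175% (0.00212 to 0.0634%), so that 96 cells stood against 19578 kept cells in all. These and all later intervals are exact 95% intervals (Clopper-Pearson for shares, Poisson for sums), and they cover counting error only.

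The study profiled dorsal skin by single-cell RNA-seq on day 10 in 1 Ctrl and 1 AD library. Both came from female C57BL/6J mice aged 7 weeks, whose back hair had been removed 24 hours before the first application to an area of 2 cm by 2 cm. Ctrl skin received 100% ethanol, the vehicle, each day, and AD skin received 4.5 nmol of MC903 (calcipotriol, a vitamin D analogue that causes an AD-like dermatitis) per application. The deposited barcodes numbered 12598 with 125184653 UMIs for Ctrl and 8778 with 76106062 UMIs for AD, and kept cells had a median of 7813 and 6330 UMIs. The number of mice behind a library is not given in the sources used here. With 1 library per condition no test between the conditions was possible, and a library cannot be told apart from its condition.

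Adipocytes of the dermal white adipose tissue store triglycerides in a lipid droplet and release fatty acids by lipolysis, and they secrete hormones such as adiponectin and leptin. They arise from preadipocytes within the fibroblast lineage of the deep dermis, which is why fibroblasts were used as the comparison. Mature adipocytes are large, buoyant and fragile, and most are lost when skin is digested with enzymes and passed through a droplet device. The share of a cell type among captured cells therefore cannot be told apart from its share in the tissue in these data.

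The 3 genes of the criteria and Lep belong to separate functions of the cell. Adipoq (ENSMUSG00000022878, chr16:23146536-23158028 in the GENCODE M21 annotation of GRCm38) encodes adiponectin. Plin1 (ENSMUSG00000030546, chr7:79720218-79732903) encodes perilipin 1, which coats the lipid droplet and gates lipolysis. Cidec (ENSMUSG00000030278, chr6:113424634-113435760) encodes a droplet protein that promotes the growth of large droplets. Lep (ENSMUSG00000059201, chr6:29060220-29073877), which was not part of the criteria, encodes the satiety hormone leptin. The promoters of these genes are shown because the genes define the cells, and because C/EBP factors, which bind sites close to TTGCNNAA, are known regulators of adipocyte genes. The sequences come from RefSeq (GRCm38.p6), each with 250 bases before and 50 bases after a start site, and the capitals mark matches to TTGCNNAA, which was searched on both strands.
Plin1 promoter, chr7:79732727-79733026, minus strand: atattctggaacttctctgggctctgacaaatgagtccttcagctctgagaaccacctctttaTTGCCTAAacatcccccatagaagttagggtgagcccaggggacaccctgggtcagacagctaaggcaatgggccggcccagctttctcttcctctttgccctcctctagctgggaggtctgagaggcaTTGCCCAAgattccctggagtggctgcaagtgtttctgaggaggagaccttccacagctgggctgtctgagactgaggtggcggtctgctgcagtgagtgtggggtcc
Cidec promoter, chr6:113434715-113435014, minus strand: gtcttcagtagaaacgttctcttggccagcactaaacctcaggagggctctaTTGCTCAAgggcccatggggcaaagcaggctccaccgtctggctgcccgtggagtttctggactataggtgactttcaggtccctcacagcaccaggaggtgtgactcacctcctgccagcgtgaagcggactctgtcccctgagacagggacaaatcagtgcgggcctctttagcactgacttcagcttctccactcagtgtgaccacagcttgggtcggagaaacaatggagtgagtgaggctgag
Lep promoter, chr6:29059971-29060270, plus strand: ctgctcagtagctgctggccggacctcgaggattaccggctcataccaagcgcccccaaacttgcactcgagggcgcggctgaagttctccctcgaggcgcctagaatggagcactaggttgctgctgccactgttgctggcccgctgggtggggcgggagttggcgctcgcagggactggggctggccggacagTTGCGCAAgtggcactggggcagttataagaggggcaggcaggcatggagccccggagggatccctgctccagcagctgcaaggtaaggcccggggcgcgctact
The 2 matches at Plin1 began 187 and 58 bases before the start, the match at 1 of the 2 Cidec starts 198 bases before it, and the match at Lep 55 bases before it. The Adipoq promoter held no match, and none of these 4 genes had the nuclear receptor motif AGGTCA, searched in the same way, in this window. Of all 32851 promoters in the table, 10.8% held TTGCNNAA and 16.3% held AGGTCA. Among Adipoq, Plin1, Cidec and the 15 genes with the highest ratio below, 10 genes had an entry, of which 2 held TTGCNNAA and 1 held AGGTCA, and the 15 genes with the lowest ratio gave the same counts, also among 10 genes with an entry. A match describes these letters alone.

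The 3 genes of the criteria, called gate genes here, were spread unevenly over the 94 cells. The values in this paragraph chose the cells and are given as a description. The sum of the 3 genes ran from 5 to 201 UMIs with a median of 37, and it was at least 20 in 72 cells. Adipoq was found in 92 cells, with a median of 9.5 UMIs and a highest value of 55. Cidec was found in 94 cells, with 2 to 137 UMIs and a median of 23. Plin1 was found in only 48 cells, with a median of 1 and a highest value of 23, so that 46 cells had all 3 genes, 46 had Adipoq and Cidec without Plin1, and 2 had Plin1 and Cidec without Adipoq. The 94 cells held 92.8% of all Adipoq UMIs of the kept AD cells, 94.9% of those of Plin1 and 86.8% of those of Cidec. At the threshold, the 7 cells with a sum of 5 to 9 had 14056 CPM (UMIs per 1000000) of the adipocyte gene Cfd and 1187 CPM of the fibroblast gene Dcn, and the 15 cells of the library with a sum of 3 or 4 had 5525 and 827 CPM. These pooled levels rested on few cells. Among the 7, 1 cell held 727 of the 1314 UMIs of Cfd and another cell held 90 of the 111 of Dcn, with medians of 61 and 3 UMIs, and the 15 had medians of 34 and 3. In the 15, Lep had 7 UMIs in 2 cells (47.5 CPM, against 24.6 CPM in the 94 cells). They also held 867 UMIs of the erythroid gene Hbb-bs and 106 of the keratinocyte gene Krt14, with at most 531 and 103 in 1 cell.

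**Figure D1:**
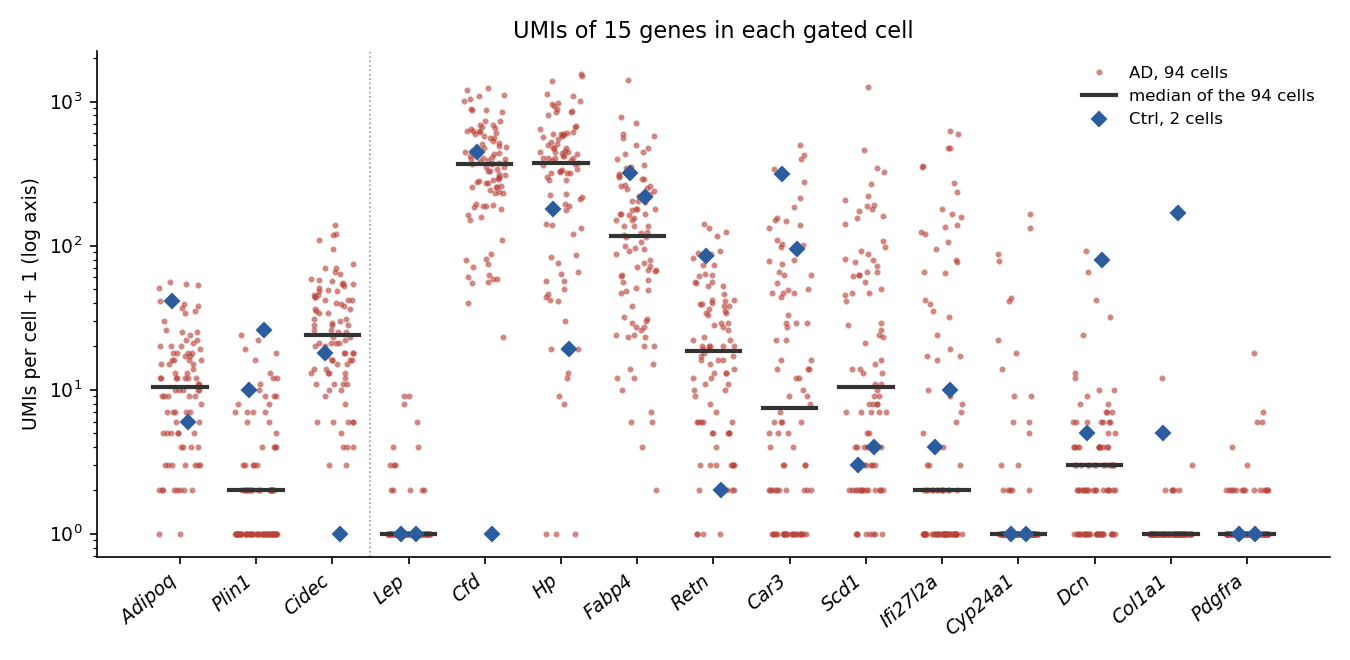
UMIs per cell plus 1 on a log axis for 15 genes, with 1 point for each of the 94 AD cells (red), a bar at their median and 1 diamond for each of the 2 Ctrl cells (blue). Genes left of the dotted line chose the cells. Cfd lies at 22 UMIs or more in every AD cell, whereas Lep, Cyp24a1, Col1a1 and Pdgfra have a median of 0.

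The label was set beside the 11 adipocyte markers that the criteria did not use. The list was chosen with earlier results of these data known, so it is not an independent check. Each of the 11 had UMIs among the 94 cells, from 14 cells for Lep to all 94 for Cfd and Fabp4. Their summed level was 36163 CPM against 212 CPM in fibroblasts of the same library. The level of a gene in a group of cells was its UMIs in all of them, per 1000000 UMIs of the group (CPM). Cfd, the serine protease adipsin, was found in 94 of 94 cells, with 22 to 1241 UMIs. Retn, the hormone resistin, was found in 90 cells, with a median of 17.5 UMIs and a highest value of 140. Pparg, the nuclear receptor that directs adipocyte differentiation, was found in 85 cells with up to 16 UMIs. Lep was found in 14 of 94 cells (14.9%, interval 8.39 to 23.7%), with 45 UMIs in all and at most 8 in a cell. No Lep UMI was found in 4979 fibroblasts. Lep stood at 24.6 CPM in adipocytes, and 3 counts over those fibroblasts would give 0.0775 CPM. With the counting error of both classes, the exact lower limit of the log2 ratio of CPM, with none added, was 7.95. After each cell had been thinned to 1000 UMIs, no Lep UMI was left in the 94 cells, so that a cell without a Lep UMI cannot be taken as a cell without Lep.

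Fibroblasts of the AD library were the 4979 kept cells (60.9%) with at least 1 UMI of Pdgfra, the receptor that marks dermal mesenchyme, no Ptprc and no place among the adipocytes. Adipocytes were captured at greater depth, with a median of 19019.5 UMIs (1907 to 42258) and 4352 genes (1060 to 5797) per cell, against 6876 UMIs and 2476 genes in fibroblasts. Mitochondrial transcripts made up a median of 5.96% of their UMIs (0.839 to 9.83%) against 1.22%. The part of mitochondrial share in the ratios was not tested. Levels were compared as CPM with 10 CPM added, over the 4101 genes with at least 50 CPM in either class and without the 5 genes of the criteria. Both classes come from 1 library, cells of 1 library are not replicates, and the adipocytes were chosen on the same counts, so the ratios are descriptions and were not tested. Of the 4101 genes, 744 (18.1%) were at least 2-fold higher in adipocytes and 842 (20.5%) at least 2-fold lower. With each cell of both classes thinned to 1000 UMIs, 960 genes were higher and 1052 lower of 4375 compared, and Cish, Vegfa, Vegfb, Col4a1 and Saa3, named below, came under 2-fold. The median log2 ratio of the 4101 genes was -0.15, and the ratios below are not shifted by it.

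Cfd and Hp, which encode secreted proteins, had the highest ratios. Cfd reached 21185 CPM (20974 to 21397) in adipocytes and 28.6 CPM in fibroblasts, a log2 ratio of 9.10. Hp, the acute-phase protein haptoglobin, reached 20795 CPM against 40.9 CPM, a log2 ratio of 8.68. In single adipocytes Cfd ran from 1324 to 47648 CPM with a median of 20321, and Hp ran from 0 to 59278 CPM with a median of 19220. Both genes were therefore high in most of the cells, and Hp was not found in 3 of them. Car3, a cytosolic carbonic anhydrase of adipose tissue and muscle, followed with 2499 against 2.04 CPM (log2 ratio 7.70), but it was found in only 71 cells, with a median of 6.5 UMIs and a highest value of 499. The other genes among the 15 were Cyp2e1 (7.47), Retn (6.92), Wfdc21 (6.70), Slc27a1 (6.14), Lrg1 (6.13), Mrap (6.10), Fabp4 (5.92), Ifi27l2a (5.84), Adig (5.64), Pck1 (5.60), Trf (5.38) and Apoc1 (5.31), each with its log2 ratio. Slc27a1 and Lrg1 were found in 94 cells, whereas Ifi27l2a was found in 53 and Pck1 in 46. Mrap encodes an accessory protein of melanocortin receptors, Trf the iron carrier transferrin, Adig the small adipocyte protein adipogenin, Cyp2e1 a cytochrome P450, Lrg1 a secreted glycoprotein and Apoc1 an apolipoprotein.

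Both leading genes also had UMIs in cells outside the adipocyte class. Free RNA can give such UMIs in droplet data, and whether these cells made the transcripts themselves was not tested. Cfd was found in 8.36% of fibroblasts, in 10.2% of AD T cells (n = 266, median 6049 UMIs) and in 9.21% of AD keratinocytes (n = 304, median 11232 UMIs), at 28.6, 23.3 and 11.2 CPM. Hp was found in 12.6% of fibroblasts, 8.27% of T cells and 16.4% of keratinocytes. The level of Hp in these 3 classes was 40.9, 32.6 and 14.2 CPM. By share fibroblasts lay below both other classes for Cfd and between them for Hp, but by level they had more of both genes than either, so no order was read from these values. Of the 4979 fibroblasts, 4891 had no UMI of the gate genes, so the class held some cells with such UMIs that did not meet the criteria. The part of these cells and of free RNA in the levels of fibroblasts was not tested. In the Ctrl library Cfd and Hp had 0 UMIs in 464 T cells, which allows up to 0.647% of cells with a UMI at their median depth of 3330.5 UMIs, a lower depth than that of the AD T cells.

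**Figure D2:**
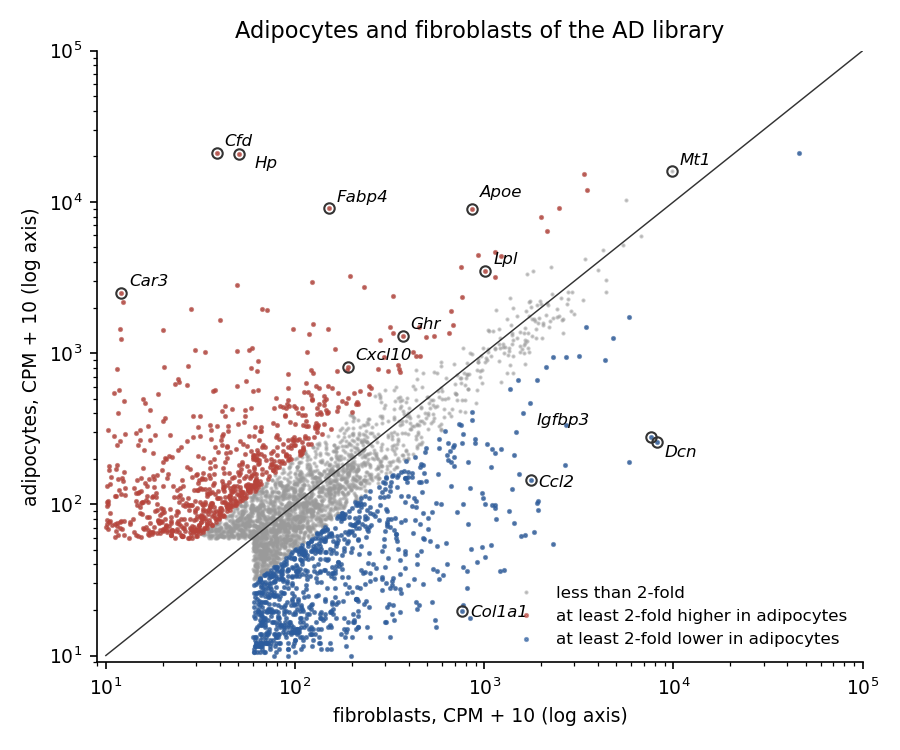
CPM plus 10 in the 94 adipocytes (vertical) and the 4979 fibroblasts (horizontal) of the AD library on log axes, 1 point per gene for 4101 genes. The line marks equal levels, red points are the 744 genes at least 2-fold higher in adipocytes and blue points the 842 at least 2-fold lower.

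Genes of the lipid droplet and of lipolysis were higher in adipocytes, with 11 of the 14 genes compared at least 2-fold higher, none lower, and a median log2 ratio of 3.15. These counts, and those of every list below, are read beside the 18.1% of all genes that were higher and the 20.5% that were lower. Fabp4, a fatty acid carrier, had 1 to 1412 UMIs per cell with a median of 116, and its level was 9138 CPM against 141 CPM. Pnpla2, the lipase ATGL that begins lipolysis, had 2 to 124 UMIs with a median of 56.5, and 2924 against 112 CPM. G0s2, its inhibitor, was found in 57 cells, with a median of 2 and a highest value of 216 UMIs, and 1032 against 19.6 CPM. Lipase and inhibitor were thus both higher over the class, but the inhibitor was concentrated in fewer cells. Plin4, a droplet coat protein, had 1013 against 23.3 CPM, Plin2 had 461 against 177 CPM, and Abhd5, the coactivator of ATGL, had 431 against 76.8 CPM. Plin3 (log2 ratio 0.13), Fabp5 (0.52) and Hsd11b1 (0.74), which are named here after their values were seen, were under 2-fold. With all deposited barcodes Fabp5 turned and was past 2-fold lower (-1.998).

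Of the genes of fatty acid uptake and triglyceride synthesis, 12 of 12 compared were at least 2-fold higher, with a median of 3.90 and log2 ratios from 1.16 to 6.14. Lpl, the lipase that frees fatty acids from lipoproteins, was also abundant in fibroblasts, with 3504 against 1003 CPM (log2 ratio 1.79). Slc27a1, a fatty acid transporter, had 1 to 77 UMIs per cell with a median of 24.5, and 1415 against 10.2 CPM. Lpin1, which makes diacylglycerol, had 1070 against 49.4 CPM. Acsl1, which activates fatty acids, had 815 against 17.3 CPM, and Cd36, a fatty acid receptor, 456 against 6.05 CPM. Pck1, which supplies glycerol in fat, had 559 against 1.71 CPM, but it was found in 46 cells and 1 cell held 16.9% of its UMIs.

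Of the genes of fatty acid synthesis, 9 of 11 were at least 2-fold higher, with a median of 2.66. Scd1, the stearoyl-CoA desaturase, had 3232 against 185 CPM and was very uneven, with 0 to 1263 UMIs per cell, a median of 9.5 and 21.3% of its UMIs in 1 cell. Acacb (257 against 7.06 CPM), Fasn (228 against 27.8), Acaca (192 against 33.5), Me1 (136 against 7.93) and Mlxipl (128 against 6.18) were all higher. They encode the acetyl-CoA carboxylases, fatty acid synthase, malic enzyme and the carbohydrate-sensing factor ChREBP. Scd2, a relative of Scd1, was the gene that was lower, with 6.01 against 74.4 CPM. Acly, which makes cytosolic acetyl-CoA, did not reach 2-fold, with 55.2 against 57.7 CPM. Genes of fatty acid oxidation were higher as well, in 13 of 14 cases, with a median of 2.07. Acadl had 425 against 67.1 CPM, Etfa 394 against 93.1, Etfb 324 against 25.7, Acadm 297 against 34.0, Echs1 271 against 50.8 and Hadha 195 against 49.7, and these encode dehydrogenases, electron carriers and hydratases of the mitochondrial pathway.

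Adipokines and other secreted proteins included 7 genes higher of 9 compared, with a median of 3.38. Apoe, the apolipoprotein, had 9 to 532 UMIs per cell with a median of 143, and 8970 against 853 CPM. Retn had 1423 against 1.86 CPM, Angptl4, which inhibits lipoprotein lipase, 1057 against 153, and Agt, angiotensinogen, 634 against 14.5. Lcn2, a siderophore-binding protein of innate defence, had 1046 against 46.8 CPM with 23.2% of its UMIs in 1 cell. Nampt (log2 ratio -0.48) and Rarres2 (-0.93), which encodes the attractant chemerin, did not reach 2-fold, and they are named after their values were seen. Without its top cell Rarres2 was past 2-fold lower (-1.07).

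Transcription factors were more mixed, with 5 of 12 higher, 1 lower and a median of 0.43. Pparg had 219 against 5.87 CPM (log2 ratio 3.85). Klf15 had 120 against 41.3 CPM, and Cebpa, Rxra and Nr1h3 were the other 3 higher genes, with log2 ratios of 1.84, 1.12 and 2.18. Rxra came under 2-fold in 3 of 19 alternatives, and Nr1h3 and Klf15 in 1 each, with 50 CPM added. Cebpd, an early factor of differentiation, was the lower gene, with 934 against 2682 CPM. Cebpb (2069 against 1886 CPM), Ebf1 (290 against 436) and Foxo1 (169 against 149) did not reach 2-fold.

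Insulin, glucose and adrenergic signalling held 8 higher genes of 12, with a median of 2.20. Acvr1c, the receptor ALK7, had 158 against 0.362 CPM, Pde3b, which degrades cAMP after insulin, 190 against 10.9, and Trarg1, a partner of glucose transporter trafficking, 138 against 1.60. Insr (271 against 139 CPM), Irs2 (724 against 467) and Pik3r1 (272 against 183) were higher by less than 2-fold. Of the 13 genes of brown and beige fat, 0 reached 50 CPM in either class. Ucp1, the uncoupling protein that defines these cells, had 0 UMIs among 1830278 UMIs of adipocytes. Cox8b was found in 28 cells with at most 13 UMIs (37.7 CPM), Ppara in 20 cells (16.4 CPM), Ppargc1a in 16 (11.5 CPM) and Cidea in 12 (8.74 CPM). In fibroblasts Cox8b had 0.0517 CPM and Cidea 1.03. Dio2 and Elovl3 went the other way, with 0 UMIs in adipocytes against 13.6 and 0.594 CPM in fibroblasts.

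**Figure D3:**
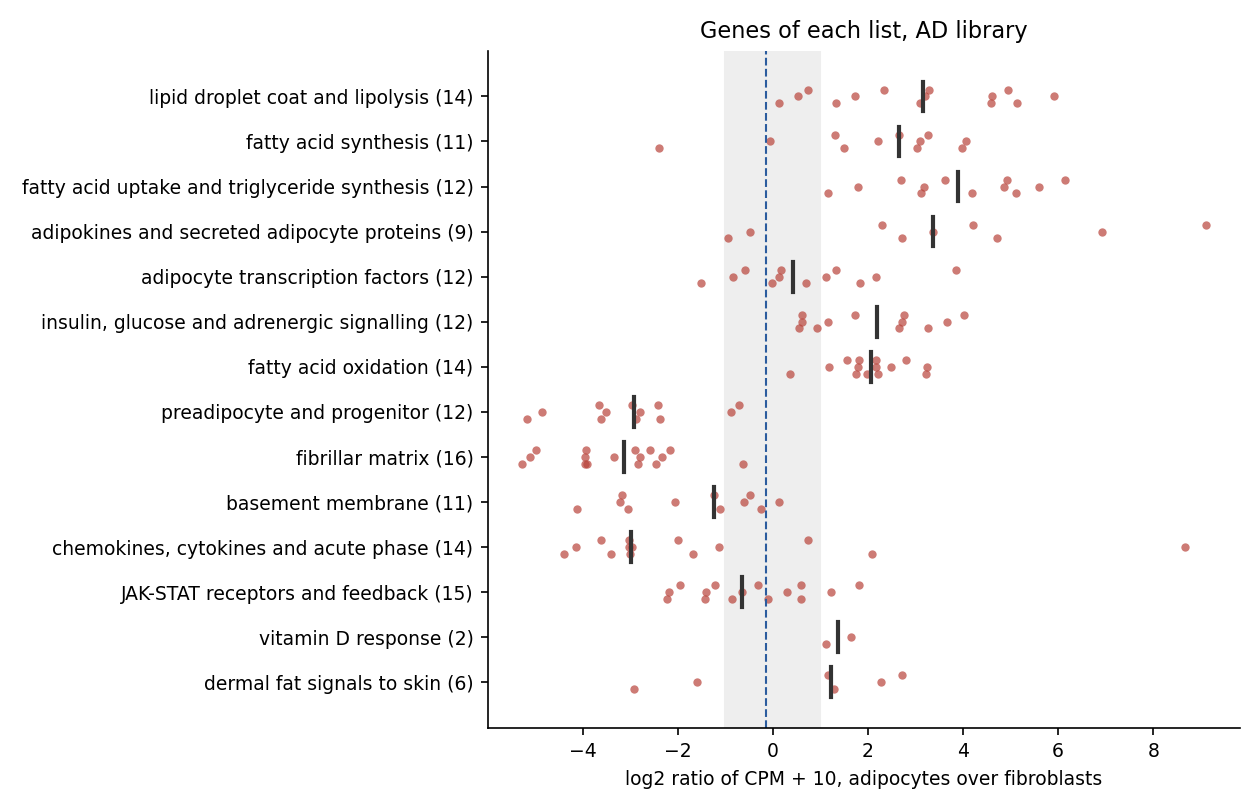
Log2 ratio of CPM plus 10 in adipocytes over fibroblasts for the genes compared in 14 lists, with 1 point per gene, a bar at the median of the list and the number of genes in brackets. The grey band marks ratios under 2-fold and the dashed line the median of all genes, -0.15. The lipid lists lie to the right and the matrix and progenitor lists to the left.

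Genes of the matrix and of progenitors were lower in adipocytes. Of 16 fibrillar matrix genes, 15 were at least 2-fold lower and none higher, with a median log2 ratio of -3.12, beside the 20.5% of all genes that were lower. Dcn, the collagen-binding proteoglycan decorin, had 249 against 8163 CPM, with 0 to 90 UMIs per cell and a median of 2. Col1a1 was found in 7 cells, of which 1 held 61.1% of its 18 UMIs, and had 9.83 against 754 CPM. Col1a2 (26.8 against 1259 CPM), Col3a1 (26.2 against 553), Fbn1 (11.5 against 318) and Col5a2 (60.7 against 308) were lower too, and Sparc, which binds collagen, was lower by less than 2-fold (482 against 754). The 15 genes with the lowest ratios were Coch (-5.58), Fgl2 (-5.39), Col1a1 (-5.27), Mgp (-5.17), Cpxm1 (-5.17), Col1a2 (-5.11), Has1 (-5.07), Smoc2 (-5.01), Dcn (-4.98), Apod (-4.93), Cyp26b1 (-4.85), Ctsk (-4.81), Igfbp3 (-4.76), Mmp2 (-4.70) and Timp2 (-4.68). Among these, Has1 makes hyaluronan, Ctsk and Mmp2 degrade matrix, Timp2 inhibits metalloproteinases, Mgp inhibits calcification and Igfbp3 binds insulin-like growth factors.

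Basement membrane genes were less far apart, with 7 of 11 lower and a median of -1.24. Col4a1 (332 against 725 CPM) and Lamc1 (116 against 288) were lower, whereas Col4a2 (241 against 338) and Lamb1 (157 against 143) did not reach 2-fold. These encode chains of type IV collagen and laminin, which surround each adipocyte. Of 12 preadipocyte and progenitor genes, 10 were lower, with a median of -2.91. Icam1, a marker of preadipocytes, had 45.4 against 619 CPM, Ly6a (Sca-1) had 59.0 against 495, and Cyp26b1, which degrades retinoic acid, had 18.0 against 797. Fmo2 (242 against 455 CPM) and F3 (60.7 against 106) were lower by less than 2-fold. Grem1, an antagonist of BMP signalling with 67.3 CPM in fibroblasts, and Dlk1, the preadipocyte factor with 1.99 CPM, had 0 UMIs in adipocytes.

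Of the fibroblasts, 185 carried a Pparg UMI, and this group was formed after values had been seen. Cells that met the criteria were not among them, so their gate genes were low by the rule. Cfd stood at 127 CPM in these fibroblasts against 21185 CPM in adipocytes, and Fabp4 at 416 against 9138 CPM. Plin2, at 477 CPM, was close to its 461 CPM in adipocytes. Some markers of other cell types were higher in these cells than in fibroblasts as a whole, with 271 against 51.8 CPM for Krt14. Krt79 had 71.2 against 10.5 CPM, Acta2 106 against 18.4 and Myh11 97.3 against 11.5. Others were lower, such as C1qa (1.64 against 4.65 CPM) and Flt1 (12.3 against 18.7). The part of other cell types in this group was not tested.

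In the list of chemokines, cytokines and acute-phase proteins most genes were lower in adipocytes, and the acute-phase genes were mixed. Among 14 genes compared, Hp and Cxcl10 were at least 2-fold higher, 11 were lower, and the median was -2.99. Cxcl10, a ligand of CXCR3 on T cells, was found in 64 cells with a median of 2 and a highest value of 124 UMIs, and had 803 against 180 CPM. Ccl2, a ligand of CCR2 on monocytes and T cells, was found in 48 cells, of which 1 held 26.4% of its UMIs, and had 134 against 1750 CPM. Cxcl1, which attracts neutrophils, had 394 against 1592 CPM, and Cxcl13, which attracts B cells, 325 against 2700. Serpina3n, an acute-phase protease inhibitor, had 1920 against 1142 CPM and stayed under 2-fold, and Saa3, an acute-phase serum amyloid named after its values were seen, had 128 against 290 CPM (log2 ratio -1.12). Saa3 was found in 13 of 94 cells, of which 1 held 73 of its 234 UMIs, and it came under 2-fold in 6 of 19 alternatives, with log2 ratios from -2.01 to -0.09. Outside the list, and named after their values were seen, the serum amyloids Saa1 (log2 ratio 3.60) and Saa2 (4.53) were higher, but at full depth 1 cell held 79.4% and 55.2% of their UMIs.

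The JAK-STAT list was mixed, with 2 higher and 6 lower genes of 15 and a median of -0.64. Of all genes, 18.1% were higher and 20.5% lower, so the share of higher genes in this list was not above that of all genes. Ghr, the growth hormone receptor, was found in 92 cells with a median of 21 UMIs, and had 1295 against 360 CPM. Cish, a feedback gene of STAT5, had 199 against 79.3 CPM. Socs3, a feedback gene of STAT3, had 1667 against 2608 CPM, Stat3 432 against 538, Il6st (gp130) 233 against 433 and Socs2 256 against 168, all under 2-fold. The receptor chains of type 2 cytokines, named after their values were seen, were lower, with 36.6 against 207 CPM for Il4ra and 9.83 against 79.4 for Il13ra1.

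The vitamin D response was measured by 2 genes past 50 CPM. Cyp24a1, the hydroxylase that degrades active vitamin D and a direct target of its receptor, had 345 against 104 CPM. This level came from 21 of 94 cells, with a median of 0 and a highest value of 165 UMIs, and 1 cell held 26.1% of them. That cell also had 17 UMIs of Pdgfra, the most of the 94, and 64 of Dcn. The next cell, with 131 UMIs of Cyp24a1, met the criteria with a sum of 6 UMIs. In the 46 cells with all 3 gate genes the log2 ratio of Cyp24a1 was -0.69, in place of 1.64 over all cells, so its direction depends on which cells are taken. It also came under 2-fold without the 27 cells that had 2 or more UMIs of sebocyte markers other than Mgst1. Rxra, the partner of the receptor, had 101 against 41.0 CPM and came under 2-fold in 3 of 19 alternatives. The receptor gene Vdr had 33.3 against 28.4 CPM, below the level compared. Among dermal fat signals to skin, 4 of 6 genes were higher and 2 lower, beside 18.1% and 20.5% of all genes. Of the 4, Camp rested on 1 cell, and Vegfa and Vegfb came under 2-fold with each cell thinned to 1000 UMIs. Vegfa, which drives vessel growth, had 463 against 202 CPM, Igf1, a growth factor, 422 against 79.7 and Vegfb 59.0 against 18.2. Camp, the antimicrobial cathelicidin, had 171 UMIs that all lay in 1 of 94 cells, and without the top cell it was at 0.

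**Figure D4:**
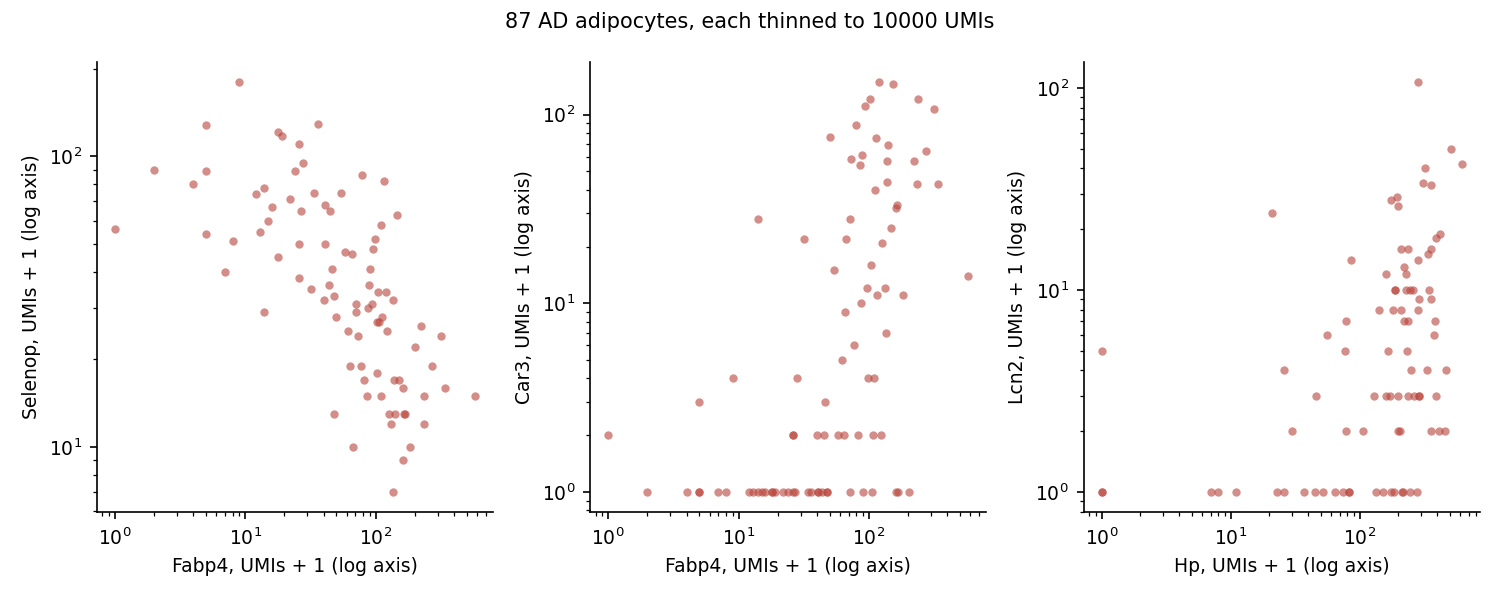
UMIs plus 1 on log axes in 87 adipocytes after each was thinned to 10000 UMIs, 1 point per cell, for Selenop and Fabp4, Car3 and Fabp4, and Lcn2 and Hp. Cells with more Fabp4 tended to have less Selenop (Spearman -0.73) and more Car3 (0.62).

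The adipocytes differed among themselves. To compare cells at 1 depth, each was thinned to 10000 UMIs at random, which left out 7 of the 94 cells, and 1629 genes had a mean of at least 1 UMI. The variance over the mean (Fano factor, 1 for counting error alone) had a median of 1.51 over these genes. Genes named in this paragraph were picked by their variation after the values had been seen. Scd1 ran from 0 to 405 UMIs with a median of 6, Ifi27l2a, an interferon-inducible gene, from 0 to 228 with a median of 0, and Car3 from 0 to 148 with a median of 3. Fabp4 ran from 0 to 578 with a median of 70 and Hp from 0 to 619 with a median of 205. Other variable genes rested on a single cell, with 75.5% of the UMIs of Saa1, a serum amyloid, and 90.6% of those of Ccl4, a chemokine of leukocytes, in 1 cell. Plin4 ran from 0 to 32 UMIs with a median of 9 (Fano 3.50). Variable genes were listed in order of their Fano factor. It can rise with the mean of a gene, so the order among genes of different levels was not interpreted.

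Some of these genes moved together over the 87 cells, which share a library and a depth. Correlations were taken only among genes with the highest Fano factors, leaving out those with a large share of UMIs in 1 cell. Pairs of other genes were not examined, so stronger ones may exist. The pairs named were picked after their values were seen, among the 30 of largest size, and the others included Gm13889 with Mt1 (0.63), Selenop with Apoe (0.59), Lcn2 with Apoe (-0.46) and Apoe with Hp (-0.42). Fabp4 and Car3 had a Spearman correlation of 0.62, Pck1 and Car3 of 0.60, and Lcn2 and Hp of 0.49. Selenop, which encodes a selenium carrier, went against Fabp4 with -0.73. At 10000 UMIs Selenop was found in 87 cells, with 6 to 179 UMIs and a median of 33. No boundary was drawn between kinds of adipocytes, and whether the cells form groups or a range was not tested.

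Pdgfra was found in 20 of the 94 cells, with 1 UMI in 14 of them and 2 or more in 6. Pooled over cells, the 20 had 750 CPM of Dcn against 108 in the 74 without Pdgfra, 1031 against 54.6 of Igfbp3 and 34.9 against 2.80 of Col1a1. A few cells carried these levels. Of the 301 UMIs of Dcn in the 20 cells 1 cell held 90, of the 414 of Igfbp3 1 cell held 145, and of the 14 of Col1a1, found in 4 cells, 1 cell held 11. The median cell had 5 UMIs of Dcn against 1 in the 74 cells, and 1.5 of Igfbp3 against 1. Their adipocyte genes stood at 531 against 709 CPM for Adipoq, 1295 against 1691 for Cidec and 17379 against 22254 for Cfd. For scale, AD T cells, which do not make decorin, had 67.7 CPM of Dcn. Whether cells with Pdgfra were adipocytes with fibroblast transcripts or droplets with 2 cells was not tested. Without them, 772 genes were higher and 897 lower, against 744 and 842.

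Markers of most other cell types were low in the adipocytes. The sebocyte list was high, and both it and the macrophage list stood above their levels in fibroblasts. The 5 keratinocyte markers summed to 24.0 CPM, the 5 endothelial to 9.83 (Flt1 at 0), and the 4 T-cell markers to 0.546 (Cd3e, Cd3g and Trac at 0). The 4 mast cell markers summed to 1.64 CPM (Cpa3 and Kit at 0), the 4 neutrophil to 8.20 and the 5 muscle to 0.546 (Acta1, Ckm, Myh4 and Tnnt3 at 0). In fibroblasts these 6 lists summed to 90.8, 81.1, 2.15, 9.69, 13.4 and 3.77 CPM, so all 6 were lower in adipocytes. The 5 macrophage markers summed to 44.3 CPM against 24.1 in fibroblasts, of which Cd68, a lysosomal protein, gave 38.2, and 22 cells had 2 or more UMIs of the list. The pericyte list summed to 27.3 CPM (Cspg4 24.6 against 16.6 in fibroblasts, Rgs5 0 against 25.4). The Schwann list summed to 32.8 (Mbp 26.8 against 40.0) and the erythroid list to 26.8 (Hbb-bs 12.0 against 221). The sebocyte list reached 2443 CPM, but 2366 of it came from Mgst1, a glutathione transferase found in 94 adipocytes and 74.6% of fibroblasts, and Awat1 and Elovl3 were at 0. Without Mgst1 the list summed to 77.0 CPM against 13.3 in fibroblasts. Of its other genes, Krt79, a keratin, had 44.3 against 10.5 CPM and was found in 29 adipocytes, Mc5r, a melanocortin receptor, had 21.3 against 0.930 in 24 cells, Scd3 had 10.9 against 0.388 in 7 cells, and Far2 had 0.546 against 0.930. The part of these other cell types in the ratios was not tested beyond leaving out cells. Without the 49 adipocytes that had 2 or more UMIs of the markers of any such type, sebocytes aside, 764 genes were higher and 893 lower. Without the 27 adipocytes that had 2 or more UMIs of the sebocyte markers other than Mgst1, a choice made after seeing the data, 736 were higher and 835 lower.

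**Figure D5:**
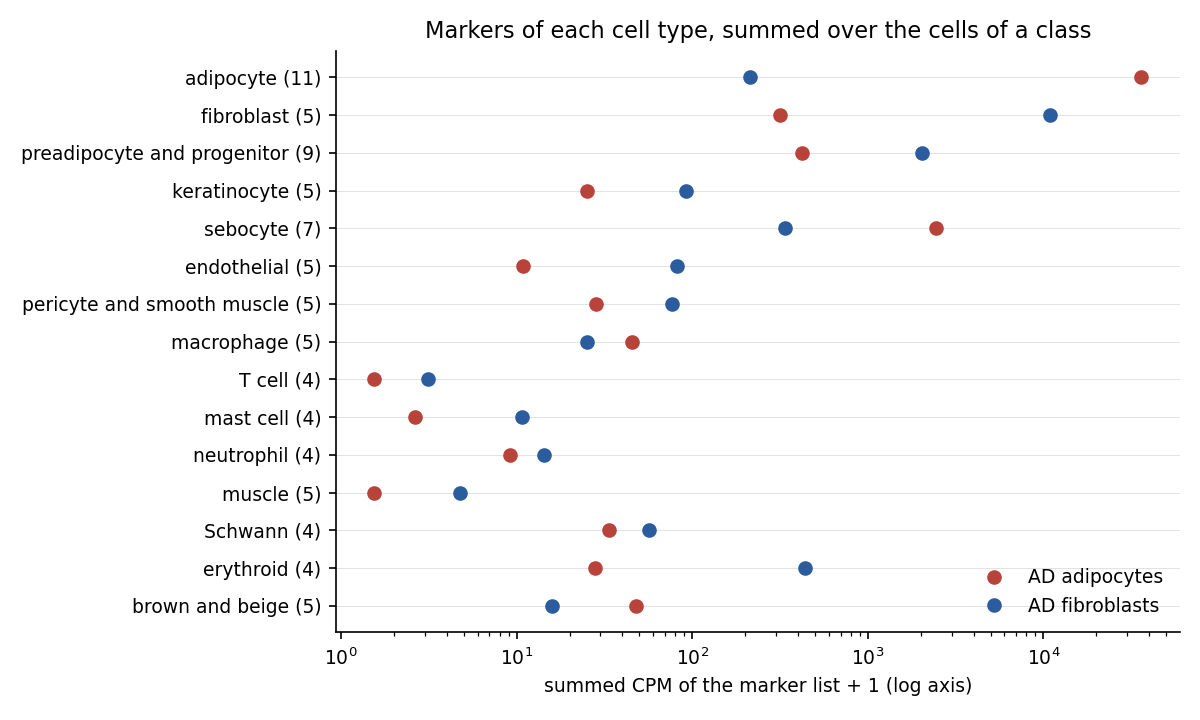
Summed CPM plus 1 on a log axis for the marker list of each cell type in AD adipocytes (red) and AD fibroblasts (blue), with the number of markers in brackets. Genes of the criteria are left out of the lists. The adipocyte list lies at 36163 CPM in adipocytes, and the sebocyte list at 2443 CPM, of which Mgst1 gives 2366.

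The 2 cells of the Ctrl library differed from each other. The first had 16352 UMIs, with 40 UMIs of Adipoq, 9 of Plin1 and 17 of Cidec, and also 443 of Cfd, 177 of Hp, 319 of Fabp4, 84 of Retn and 315 of Car3. These values lay within the range of the 94 AD cells per UMI, except that its 2446 CPM of Adipoq and 19264 CPM of Car3 lay above the highest AD cell (2104 and 16780 CPM). The second had 35293 UMIs and 5951 genes, with 5 UMIs of Adipoq, 25 of Plin1, 0 of Cidec and 0 of Cfd, beside 218 of Fabp4 and 295 of Lpl. It also held 167 UMIs of Col1a1, 357 of Col3a1 and 78 of Dcn, and it had no Pdgfra UMI. Its Cfd lay below and its Col1a1 above all 94 AD cells. Neither cell had Lep or Cyp24a1. With 2 cells, no profile of Ctrl adipocytes was compared with AD.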

How the data were processed

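Single-cell libraries of dorsal skin were made by the authors from cells freed with collagenase and DNase, after dead cells had been removed, using 10x 3′ chemistry (v3.1). The authors deposited counts, the UMIs of each gene in each barcode, aligned to mm10 and not normalized. The matrix header names Cell Ranger 5.0.0, the submitters' processing notes name Cell Ranger 3.1.0 and Seurat 5.0, and the design text names 6.0.0 and 4.3.0. These do not match. The filter on genes and mitochondrial UMIs had not been applied before deposit. Of 33904 gene identifiers, 32475 are in GENCODE M21.

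The UMIs of each class of cells were pooled by gene and scaled to CPM. Ratios are log2 of CPM with 10 added, which understates the change of low genes, and at least 2-fold counts as higher or lower. The ratio code was tested on simulated data. Scrublet (in scanpy 1.11.5, seed 0) called 395 doublets (3.47%) in Ctrl and 0 in AD, where the caller is taken as failed, and doublets were not removed. Of barcodes, 35 occur in both libraries and none is among the 94 cells. T cells and keratinocytes were chosen by their marker genes.

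The members, lists and markers were chosen with earlier results of these data known. Named are the genes of the criteria and Lep, the 15 highest and 15 lowest ratios, and 2 to 6 genes of each list by abundance in adipocytes, with exceptions stated. Alternatives changed the criteria, the barcodes, the classes, the scaling, the CPM added and the filter. Python 3.11.15, numpy 2.4.6, scipy 1.17.1, pandas 2.3.3 and matplotlib 3.10.9 were used.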

Additional observations from a re-analysis of the deposited data

Results flagged for a closer look

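A signal appeared in barcodes that the comparisons did not use. In the AD library, 12 further barcodes met the criteria on Adipoq, Plin1, Cidec and Ptprc but were removed by the filter, 9 for mitochondrial UMIs and 3 for more than 6000 genes, against 2 in Ctrl. Their levels were 762 CPM of Adipoq, 17586 of Cfd and 11414 of Hp. Another 13 AD cells had 5 or more UMIs of 1 gate gene only, which was Cidec in 13 of 13, against 3 cells in Ctrl, where it was Cidec in 1. Having no other gate gene is how these cells were picked. The 13 cells had no Lep UMI, and they had 7310 CPM of Cfd, 12952 of Hp, 665 of Plin4, 174 of Pparg and 7601 of Scd1, with 4 of them carrying Pdgfra.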

How the results depend on the processing

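The count of 94 AD cells ran from 87 to 106 when the sum was set at 3 or 10 UMIs, when Ptprc was ignored, when all barcodes were used, when at least 500 genes and 1000 UMIs were required, or when the 6% of cells with the highest doublet scores were left out (6 of the 94, a choice made after seeing the data). It was 46 with all 3 genes required and 9 after each cell was thinned to 1000 UMIs, while Ctrl had 1 to 4 cells under every alternative. The planned removal of called doublets gave no value in AD, where none was called. The genes at least 2-fold higher and lower, 744 and 842, were 442 and 540 with 50 CPM added. With a filter at 10 CPM or none, 1107 genes were higher and 1555 lower, of 9166 or 21167 genes compared. Centring on the median gave 852 and 747. Of 646 log2 ratios (those of the criteria genes, Lep and the 30 extreme genes under 19 alternatives), 203 moved beyond counting error. None changed sign, but these genes were chosen for their ratios or define the classes, so a kept sign says little. Of genes named from lists, Cyp24a1 changed sign to -0.69 with all 3 genes required and Camp to -0.65 without the top cell of each gene (and also without cells holding markers of other types). Cyp24a1, Col4a1, Lamc1, Cish, Vegfa, Vegfb, Rxra, Nr1h3 and Klf15 came under 2-fold in 1 to 4 alternatives, and Saa3 in 6. Of named genes under 2-fold, Fmo2, F3, Fabp5, Rarres2, Insr, Il6st and Serpina3n passed it in 1 or 2, of which Fabp5, with all barcodes, went from 0.52 to -1.998. At 1000 UMIs per cell Plin1 was found in 11 of 94 cells, against 48 at full depth, so depth limits what absence from a cell shows. No paired analysis was possible because each group has 1 library.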
